A study of Gallus gallus with 31 samples.

Results

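The comparison set 4 chicken cardiac fat libraries that carried transcripts of muscle against the other 12 cardiac fat libraries. Cardiac fat is the fat tissue around the heart. The 4 were all cardiac libraries in which the deposited value of CASQ2, the calcium store protein of the sarcoplasmic reticulum of heart muscle, lay above 10 FPKM, a fragment count divided by the length of the transcript and by the library's mapped total. They are 4 of 16 cardiac libraries and of 31 libraries in all. The 4 comprised Illinois libraries 1112 and 1107 of the Fall 13 trial and Ross libraries 1208 and 1209 of the Fall 12 trial. The 12 others comprised 6 Illinois libraries of Fall 13, 4 Ross libraries of Fall 13 and 2 Ross libraries of Fall 12. A further 15 libraries of abdominal fat serve as background. All birds were males of 42 days labelled as controls, with feed and water freely available, and Ross is a broiler line, while the other line is labelled only as Illinois. The labels do not say whether a library came from 1 bird or from several, so p-values measure the spread between libraries.

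Heart muscle contracts through repeating units of actin and myosin, with calcium released from and taken back into the sarcoplasmic reticulum at each beat. Fat cells instead store lipid, under the nuclear receptor PPARG, and carry fatty acids on FABP4. Cardiac fat lies on the heart itself. The T-box factors TBX5 and TBX20, known from heart development, and BMP10, a secreted growth factor made in the mouse by heart muscle, are textbook heart genes.

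The libraries were chosen by their values of CASQ2 (Entrez 395198), which are given without a test. CASQ2 stood at 77.2 FPKM in library 1208, 36.3 in 1107, 27.5 in 1112 and 18.1 in 1209, against 0.0804 to 3.59 FPKM in the 12 others (median 0.823). The lowest library inside the threshold was 1209, and the highest outside it was Ross library 1205. CASQ2 thus left a gap between the classes, but it was above the floor of the table in all 12 others.

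Myosin and growth factor transcripts followed the same libraries. MYH7B (Entrez 395279), a slow type myosin heavy chain, was at 162.8 FPKM in 1112, 94.9 in 1208, 53.0 in 1107 and 28.3 in 1209, against 0.0310 to 18.8 FPKM in the others (median 1.55). BMP10 (Entrez 395177) was at 746.6 FPKM in 1208, 141 in 1112, 19.8 in 1107 and 19.1 in 1209, against 0.0732 to 7.21 FPKM in the others (median 0.200). For both genes the classes did not overlap. Library 1205 had the highest MYH7B of the 12 others and Illinois library 1114 the next at 11.3 FPKM, and 1114 had the highest BMP10, so the 12 were not free of the signal. In abdominal fat CASQ2 reached 5.10, MYH7B 6.13 and BMP10 0.0591 FPKM.

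**Figure D1:**
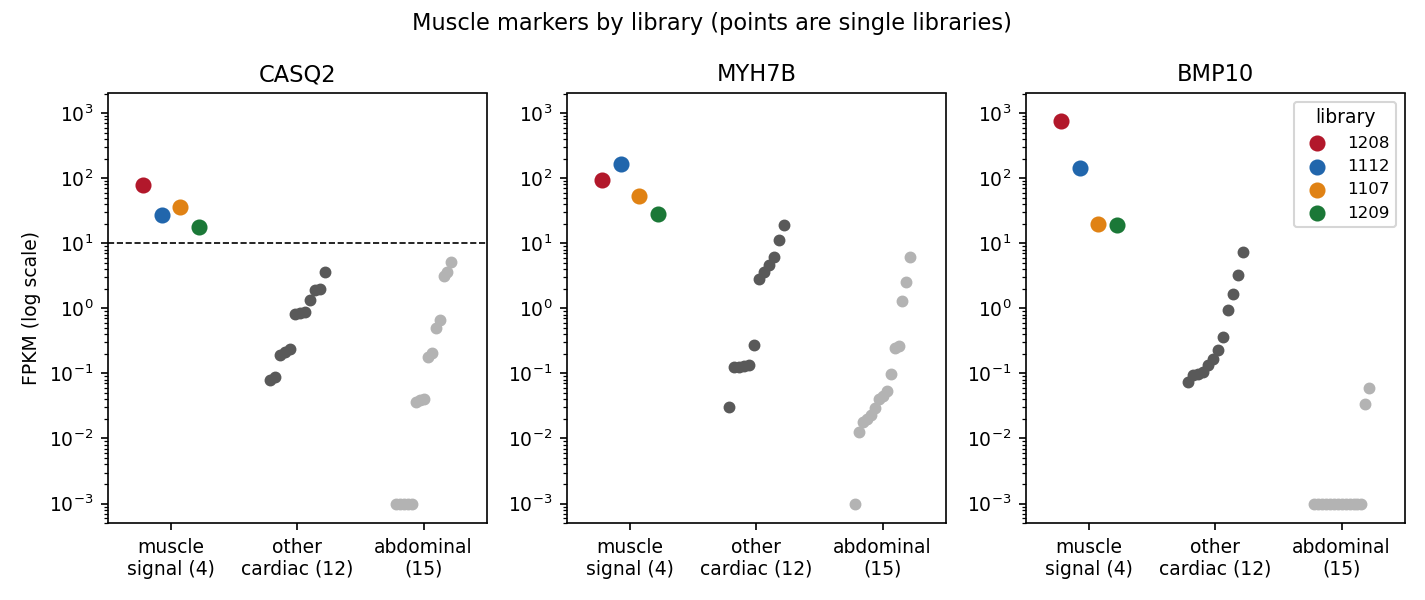
Values of CASQ2, MYH7B and BMP10 in FPKM on a log axis, 1 point per library, for the 4 libraries with a muscle signal, the 12 other cardiac and the 15 abdominal libraries. The dashed line is the threshold of 10 FPKM. The 4 libraries lie above all others for each gene, and BMP10 stays at or below 0.0591 FPKM in abdominal fat.

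Several other genes of the muscle cell, but not all, stood high in the same 4 libraries. SMYD1, a methyltransferase needed for sarcomere assembly, was at 95.5 FPKM in 1208, 24.2 in 1112, 17.0 in 1107 and 15.6 in 1209, against 0.737 to 4.78 FPKM in the others. XIRP1, an actin-binding protein of the junctions between heart muscle cells, was at 10.5 FPKM in 1208, 4.42 in 1112, 3.09 in 1107 and 2.90 in 1209, against at most 0.241. CAV3, the caveolin of muscle, was at 23.8 FPKM in 1208, 7.91 in 1112, 4.29 in 1107 and 3.97 in 1209, against at most 0.844. SMYD1 did not overlap, and for XIRP1 and CAV3 the lack of overlap was fixed by the filter described below. NEBL, a thin filament protein of heart muscle, overlapped. It was at 62.5 FPKM in 1208, 31.9 in 1112, 14.4 in 1107 and 12.3 in 1209, against 4.95 to 15.5 in the others. In abdominal fat NEBL ranged from 9.53 to 37.2 FPKM (median 16.6), so 1208 alone lay above every abdominal library. These genes are given as values with no test, as they mark the signal that chose the libraries. CKMT1A, on the same gene list as CAV3, did not follow the signal. It was at 10.2 FPKM in 1209, 1.01 in 1208, 0.230 in 1107 and 0.0864 in 1112, against 0.341 to 6.99 in the others. XIRP1, CAV3, KCND3 and MSTN reached 1 FPKM in none of the 12 others. They passed the filter on low values only through the 4 libraries.

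The 4 libraries did not carry the muscle transcripts in 1 ratio. BMP10 divided by CASQ2 was 9.67 in 1208, 5.13 in 1112, 1.06 in 1209 and 0.546 in 1107. The ratio of MYH7B to CASQ2 was 5.92 in 1112 and between 1.23 and 1.57 in the other 3. The ratio of XIRP1 to CASQ2 spanned 1.89-fold, and that of BMP10 17.7-fold. The 4 libraries thus differed in the makeup of the signal as well as in its height.

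Library 1107 went against the name heart muscle in part. It alone held MYOD1, the lineage factor of skeletal muscle, at 6.08 FPKM, while MYOD1 was listed at the floor of 0.001 in 1208, 1112 and 1209 and reached at most 0.139 in the 12 others. NEB, the giant thin filament protein of skeletal muscle, was at 34.2 FPKM in 1107, 0.180 in 1112, 0.107 in 1209 and 0.0349 in 1208, against at most 2.29 in the others. UCP3, a mitochondrial carrier known from skeletal muscle, was at 8.34 FPKM in 1107 and at most 0.446 in the other 3, against at most 1.41 in the 12. Library 1107 was also highest in ANKRD1, a stress-responsive ankyrin repeat protein of striated muscle, at 8.47 FPKM, and in FBP2, the fructose bisphosphatase of muscle, at 16.02 FPKM. ANKRD1 was at 1.87 FPKM in 1112, 0.990 in 1208 and 0.135 in 1209, against at most 1.15 in the 12 others. FBP2 was at 5.14 FPKM in 1208, 1.30 in 1209 and 0.769 in 1112, against at most 2.32. Neither gene thus set 1107 apart as MYOD1 and NEB did. BMP10 in 1107 was still above every other cardiac library outside the 4, while MYH1B, a fast myosin, was listed at the floor in all 4. MYOG, another skeletal muscle regulator, stood at 0.162 FPKM in 1107. The set is therefore called the libraries with a muscle signal, and not heart muscle alone.

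IRX4, a homeobox factor that marks the ventricle of the chick heart, split the 4 in another way. It was at 5.45 FPKM in 1112 and 3.47 in 1209, but at 0.0876 in 1208 and 0.0538 in 1107, against at most 0.417 in the 12 others. Library 1208, with the highest BMP10, was thus within the range of the 12 others in IRX4, as was 1107. NEB, MYOD1, UCP3, ANKRD1, FBP2, MYOG, MYH1B and IRX4 were chosen after their values were seen.

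**Figure D2:**
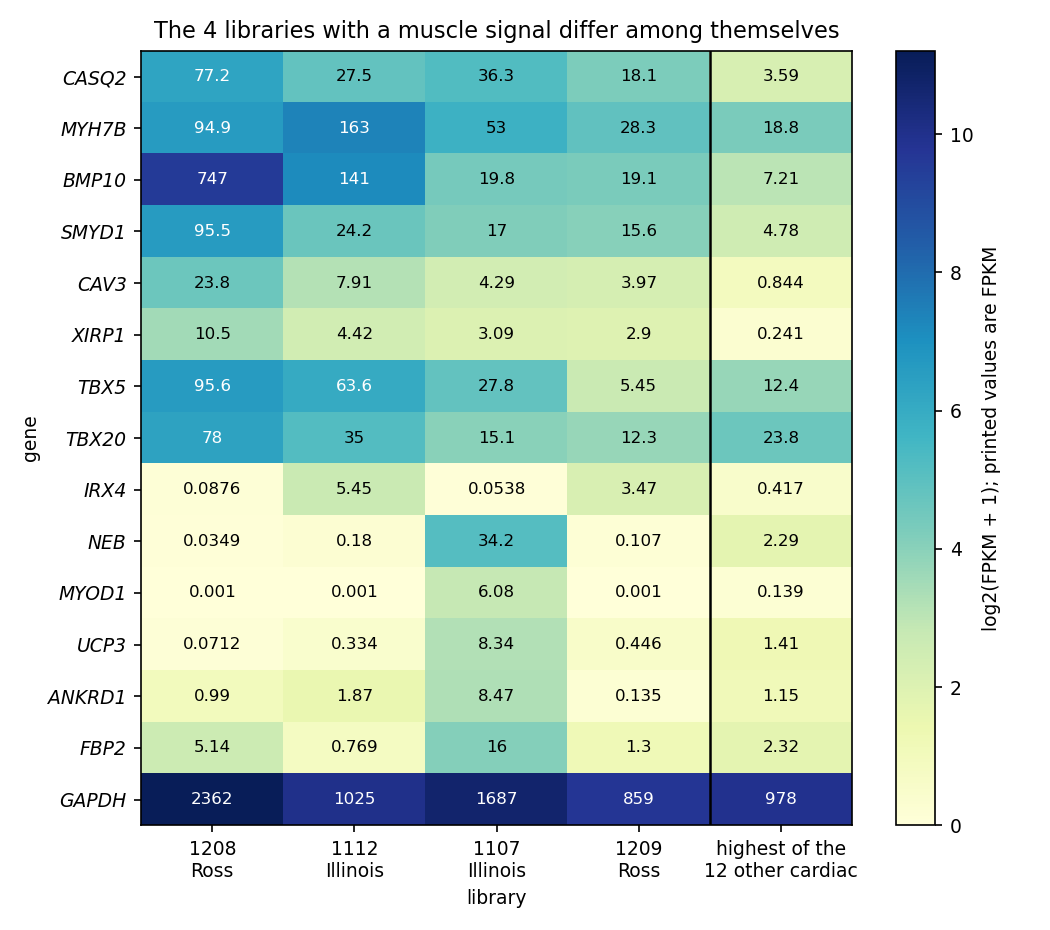
Values of 15 genes in FPKM (printed) and on the log2(FPKM + 1) scale (colour) in each library with a muscle signal, and the highest value among the 12 other cardiac libraries in the column on the right. NEB and MYOD1 are high in 1107 alone, and IRX4 in 1112 and 1209.

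To ask what else varied with the signal, log2(FPKM + 1) was fitted with limma with class and line as terms in the 16 cardiac libraries. A gene was called at an adjusted p (Benjamini-Hochberg over 424 genes tested, CASQ2 left out) below 0.05. Of 424 genes 27 were called (6.37%), 14 higher (3.30%) and 13 lower (3.07%) with a muscle signal, and 109 had an unadjusted p below 0.05. Over all tested genes the median log2 fold change was -0.20. Of the 14 higher genes, XIRP1, CAV3, KCND3 and MSTN had to differ, as they entered the test only through the 4 libraries, and MYH7B, BMP10 and SMYD1 mark the signal. That left 7 higher genes. Of these, TMEM121, RIMBP2 and SH3GL3 reached 1 FPKM in fewer than 4 of the 12 others. They too thus needed the 4 libraries to pass the filter, while TBX5, TBX20, SDK1 and GAPDH did not. With a filter that asked for 1 FPKM in at least 7 libraries, 20 genes were called, 8 higher and 12 lower. That filter too could be passed with the help of the 4 libraries, as it was by BMP10 and SH3GL3. The 8 also include MYH7B, BMP10 and SMYD1, which mark the signal. Adding 1 before taking logs makes the fold changes of weakly expressed genes too small. In bulk tissue, fewer cells of a type and less RNA per cell cannot be told apart.

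Of the heart developmental regulators, TBX5 and TBX20 rose. TBX5 was at 95.6 FPKM in 1208, 63.6 in 1112, 27.8 in 1107 and 5.45 in 1209, against 1.17 to 12.4 FPKM in the others (median 4.88). It was higher by 2.47 on the log2 scale (SE 0.56, limma adjusted p = 0.0157), with 3 libraries above all others and 1209 among them. TBX20 was at 78.0 FPKM in 1208, 35.0 in 1112, 15.1 in 1107 and 12.3 in 1209, against 6.61 to 23.8 in the others (median 8.48), a log2 fold change of 1.37 (SE 0.38, limma adjusted p = 0.0408). Here 1107 and 1209 overlapped with the others, among which Illinois library 1108 held 23.8 FPKM of TBX20 with 0.211 FPKM of CASQ2. The call of TBX20 was lost in 11 of 16 fits with 1 library left out, and without 1208 its log2 fold change was 0.79 (limma adjusted p = 0.223). TBX20 reached at most 0.633 FPKM in abdominal fat, so all 12 cardiac libraries outside the 4 also lay above every abdominal one. Of 6 tested heart regulators, these 2 rose, and the 4 others lay below 0 and were not called. The median log2 fold change of the 6 was -0.28. The summed level of the list was 126 to 764 FPKM with a muscle signal and 167 to 974 in the others. Over all 424 genes 14 rose (3.30%). TBX18, a factor of the epicardium, had a log2 fold change of -0.50 (limma adjusted p = 0.131). HOPX, a homeodomain protein without DNA binding, had one of -1.41 (limma adjusted p = 0.0537), with 658 FPKM in 1209 and 27.2 to 107 in the other 3, against 76.5 to 896 in the 12.

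Further genes that stood high were of several kinds, and KCND3 and MSTN are given as values only. KCND3 is a potassium channel that carries a fast outward current in heart muscle. It was at 3.52 FPKM in 1112, 3.34 in 1208, 1.98 in 1209 and 1.97 in 1107, against at most 0.377 in the 12 others. In abdominal fat KCND3 reached 2.29 FPKM in library 1198, above its values in 1209 and 1107. MSTN, myostatin, which restrains muscle growth, was at 4.50 FPKM in 1112, 3.17 in 1107, 1.22 in 1209 and 1.09 in 1208, against at most 0.101. Both genes passed the filter only through the 4 libraries, so their lack of overlap with the 12 was fixed by that. Their order among the 4 was not that of CASQ2. The other 3 tested ion channel and gap junction genes were not called. TMEM121, a transmembrane protein, was at 69.7 FPKM in 1208, 15.96 in 1112, 7.76 in 1209 and 3.71 in 1107, against 0.310 to 1.37 in the others, a log2 fold change of 3.19 (SE 0.44, limma adjusted p = 0.000138). It was the largest change among tested genes that are not on the muscle lists and did not overlap. Of the 12 others only 1114, at 1.37 FPKM, and 1110, at 1.02, reached 1 FPKM. TMEM121 thus passed the filter only with the help of the 4 libraries, and its p is not free of that choice. The adhesion molecule SDK1 had 24.6 FPKM in 1208, 6.93 in 1112, 4.96 in 1209 and 3.23 in 1107, against 0.952 to 6.52 in the others (log2 fold change 1.51, limma adjusted p = 0.0306), with 1208 and 1112 above all others. RIMBP2, a scaffold of the presynaptic terminal (1.63), and SH3GL3, an endophilin (0.88), completed the higher calls and were named after their values were seen. Both overlapped with the others. RIMBP2 was at 4.56 FPKM in 1211, above 1112, 1209 and 1107, and SH3GL3 at 1.83 in 1210, above 1209 and 1107. CAMK2A, a calcium-dependent kinase that failed the filter, stood at 8.58 FPKM in 1208, 2.76 in 1112, 0.938 in 1209 and 0.821 in 1107, against at most 0.0709 in the others, and was also chosen after its values were seen.

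Of genes of energy metabolism, the glycolytic enzyme GAPDH rose. GAPDH was at 2362 FPKM in 1208, 1687 in 1107, 1025 in 1112 and 859 in 1209, against 280 to 978 FPKM in the others (median 551). The log2 fold change was 1.39 (SE 0.27, limma adjusted p = 0.00435), and 3 of the 4 libraries lay above all others. Mitochondrial genes were not called, with a median log2 fold change of 0.31 over 5 tested genes. ATP5A1, a subunit of the ATP synthase, was at 407 FPKM in 1208, 341 in 1112, 208 in 1209 and 89.4 in 1107, against 100 to 229 in the others (log2 fold change 0.74, limma adjusted p = 0.117). Library 1107, the one with MYOD1, was the lowest of all 16 in ATP5A1.

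Fat cell genes fell in part with the muscle signal. PPARG (Entrez 373928) was at 27.8 FPKM in 1209, 14.4 in 1107, 12.0 in 1112 and 9.46 in 1208, against 18.9 to 67.4 FPKM in the others (median 32.4). Its log2 fold change was -1.24 (SE 0.27, limma adjusted p = 0.0101). Within each line both libraries lay below all 6 others, though 1209 missed the lowest Ross library, at 28.2 FPKM, only narrowly. FABP4 (Entrez 374165) was at 16461 FPKM in 1209, 4865 in 1208, 3893 in 1107 and 1959 in 1112, against 5513 to 25932 in the others (log2 fold change -1.42, SE 0.37, limma adjusted p = 0.0307). The classes overlapped through 1209, which was within the Ross range. ME1, malic enzyme, which provides NADPH to lipid synthesis, had a log2 fold change of -0.67 (limma adjusted p = 0.0382). The calls of FABP4 and ME1 were lost in 6 and 9 of 16 fits with 1 library left out. Of 11 tested fat cell and lipid genes 3 fell, none rose and 8 were not called. Over all 424 genes 13 fell (3.07%) and 14 rose (3.30%). The median of the 11 was -0.46, beside -0.20 for all genes. Among those not called were the caveolin CAV1 (-0.38), the adipogenic factor EBF2 (-0.46), the sterol-sensing receptor NR1H3 (-0.46) and the lipid synthesis factor SREBF1 (0.05).

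FABP4 took so large a share of the values that its part in the whole was tested alone. It made up 8.17% of the summed FPKM of the 564 genes in 1112, 14.0% in 1208, 16.7% in 1107 and 34.5% in 1209. The mean was 18.3% ± 11.3 with a muscle signal (SD, n = 4) and 32.1% ± 8.71 in the others (SD, n = 12), a difference of -13.8 percentage points averaged over lines. An exact permutation test within line gave p = 0.0115 (two-sided, 784 arrangements, the smallest possible p being 0.00128). Without library 1208 the difference was -8.66 points (exact permutation p = 0.148). The summed FPKM of these genes was itself low in 1107 and 1112, at 23368 and 23960, and 34636 in 1208 and 47748 in 1209, against 31021 to 61551 in the others. The part of this in the lower values was not tested.

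**Figure D3:**
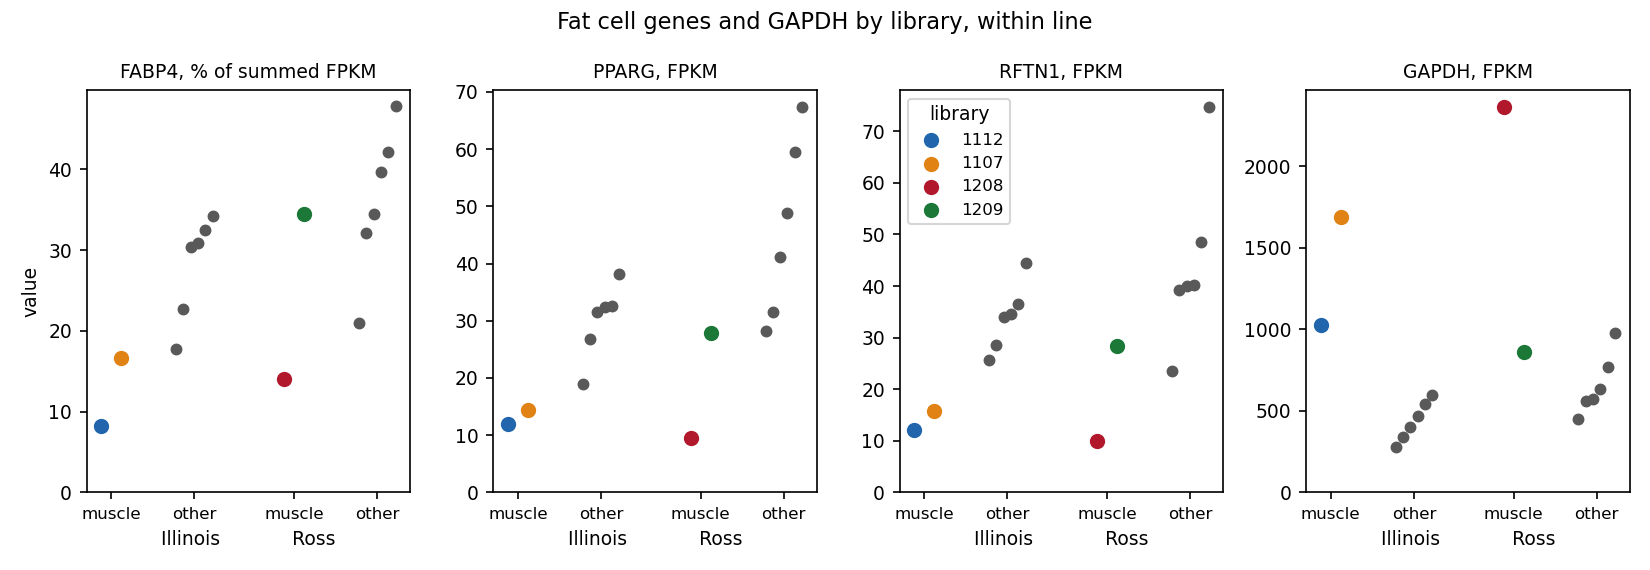
Share of FABP4 in the summed FPKM (percent), and PPARG, RFTN1 and GAPDH in FPKM, 1 point per library, by line, with the libraries with a muscle signal (coloured) left of the others (grey). PPARG lies below all others of the line in each of the 4, and FABP4 in 1209 lies within the Ross range.

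Other genes that fell were of many kinds. RFTN1, raftlin, a protein of lipid rafts, was at 28.4 FPKM in 1209, 15.8 in 1107, 12.1 in 1112 and 10.04 in 1208, against 23.6 to 74.7 in the others (log2 fold change -1.23, SE 0.26, limma adjusted p = 0.00994). In RFTN1 3 of the 4 lay below all others. OPTC, opticin, a small matrix proteoglycan, had a log2 fold change of -1.19, GPX4, which removes lipid peroxides, of -0.98, and NBL1, an antagonist of bone morphogenetic proteins, of -0.79. Their calls were lost in 11, 6 and 9 of 16 fits with 1 library left out. NBL1 was at 96.6 FPKM in 1209, within the range of 66.9 to 136 in the other Ross libraries. PPP3CA, a catalytic subunit of calcineurin, was at 35.7 FPKM in 1112, 34.1 in 1107, 22.1 in 1209 and 22.0 in 1208, against 36.1 to 84.4 in the others (log2 fold change -0.97, limma adjusted p = 0.0235), with no overlap. Also lower were the kinase HIPK2 (-0.80), the RUNX partner CBFB (-0.68), the deubiquitinase ATXN3 (-0.68) and the mitochondrial fission regulator MTFR1 (-0.66). The calls of these genes were lost in 6, 3, 7 and 9 of 16 fits with 1 library left out. Outside the rule for named genes, the ribosomal protein RPL14 (-0.58) was lower too. The limma adjusted p ran from 0.0291 to 0.0424 over these 5, OPTC, GPX4 and NBL1.

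**Figure D4:**
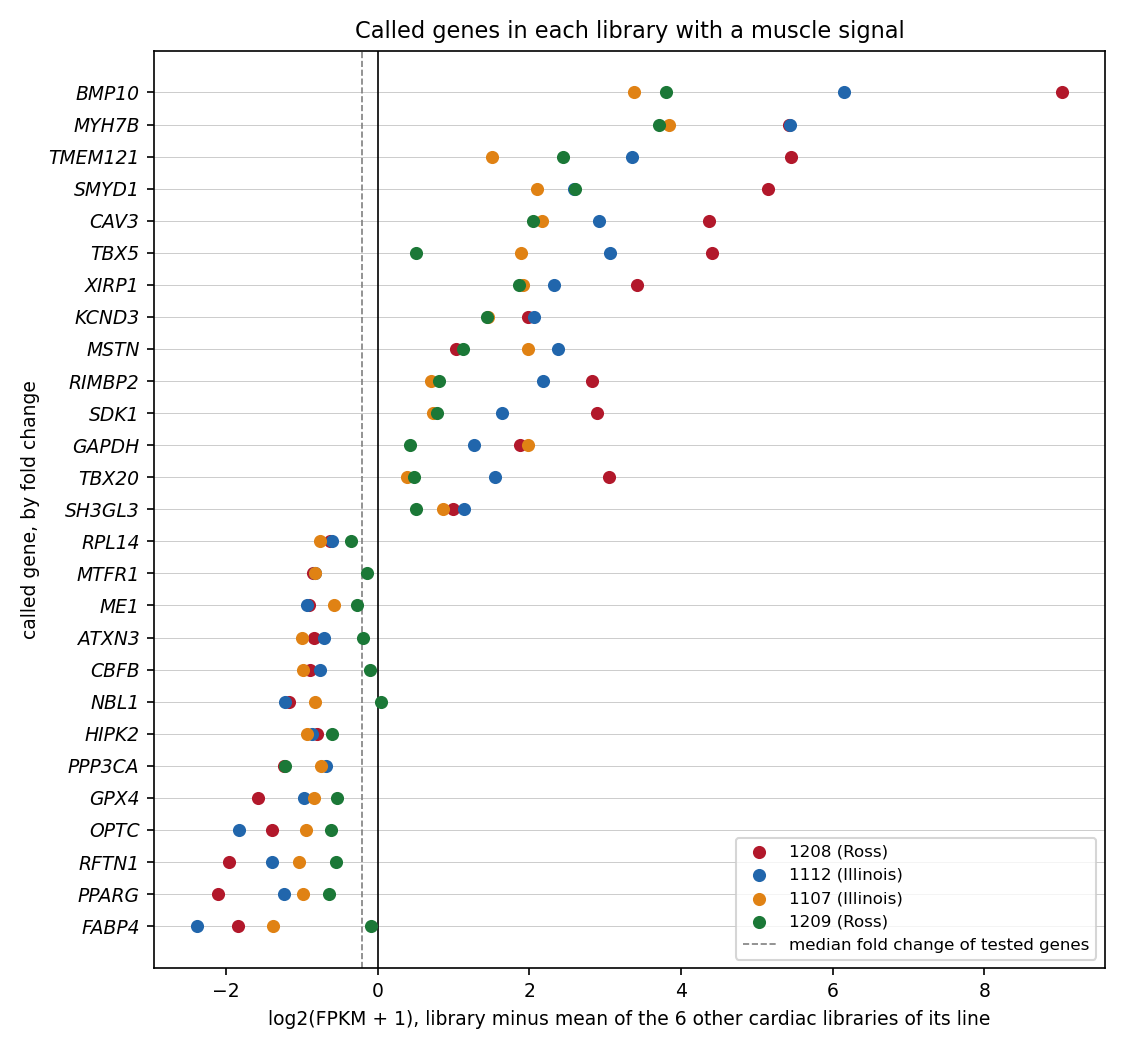
Log2 differences on the log2(FPKM + 1) scale of the 27 called genes in each library with a muscle signal from the mean of the 6 other cardiac libraries of its line, and the median fold change of tested genes (dashed). Library 1209 lies nearest to 0 for most genes, and 1208 farthest for BMP10, at 9.02.

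The 4 libraries contributed unequally. The calls were made from these same libraries, so their counts here are a description. Of the 13 lower calls, 1112, 1107 and 1208 each lay below all 6 others of their line in 13, and 1209 in 4. Over all 424 genes the numbers below all others were 132 in 1112, 242 in 1107, 113 in 1208 and 41 in 1209. Library 1209 thus stood apart least on the low side. Of the 14 higher calls the number above all others of the line was 14 in 1112, 13 in 1107, 14 in 1208 and 9 in 1209, and over all genes it was 61, 20, 58 and 48. Over all 424 genes the median difference from the others of the line was -0.56 in 1107, -0.20 in 1112, -0.15 in 1208 and 0.07 in 1209 on the log2 scale. Library 1107 thus lay farthest below its line. Without 1208, 9 genes were called, all 9 of them higher, and without 1112 12 were. KCND3 and MSTN, which had to differ, kept their calls in all 16 fits with 1 library left out. Each count of higher genes from these fits thus includes them. Without 1209, 64 were called, 18 higher and 46 lower, and without 1110, 1111 or 1114 16 each. Without 1107, 22 were called, 19 higher and 3 lower, and PPARG, RFTN1, TBX5 and GAPDH kept their calls. Without 1208 the calls of PPARG (limma adjusted p = 0.0951), RFTN1 and TBX5 were lost, with log2 fold changes of -0.94, -0.97 and 1.76, as were those of SDK1 (1.04, limma adjusted p = 0.183) and FABP4 (-1.23, limma adjusted p = 0.172). Of the 17 tested named genes other than KCND3 and MSTN, TMEM121 and GAPDH kept their calls without 1208. Of that pair GAPDH alone would have passed the filter on the 12 others.

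The split of higher and lower genes rested on how libraries were scaled. With quantile scaling 16 genes were higher and 5 lower, with upper quartile scaling 19 and 2, and with median of ratios scaling 20 and 2. Over all tested genes the median then became -0.10, -0.00 and 0.05. Of the 14 higher genes, 13, 14 and 14 kept their call in the same order. Genes that had to differ or mark the signal are thus in each higher count. Of the 13 lower genes, 3 kept their call after quantile scaling, and PPARG and RFTN1 were the 2 lower genes in both other scalings. FABP4 had the highest value of any gene in each library, which quantile scaling sets equal across libraries. Upper quartile and median of ratios scaling gave it log2 fold changes of -1.19 and -1.14, neither called. GAPDH, TBX5, TBX20, SDK1 and TMEM121 were called higher under each scaling.

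**Figure D5:**
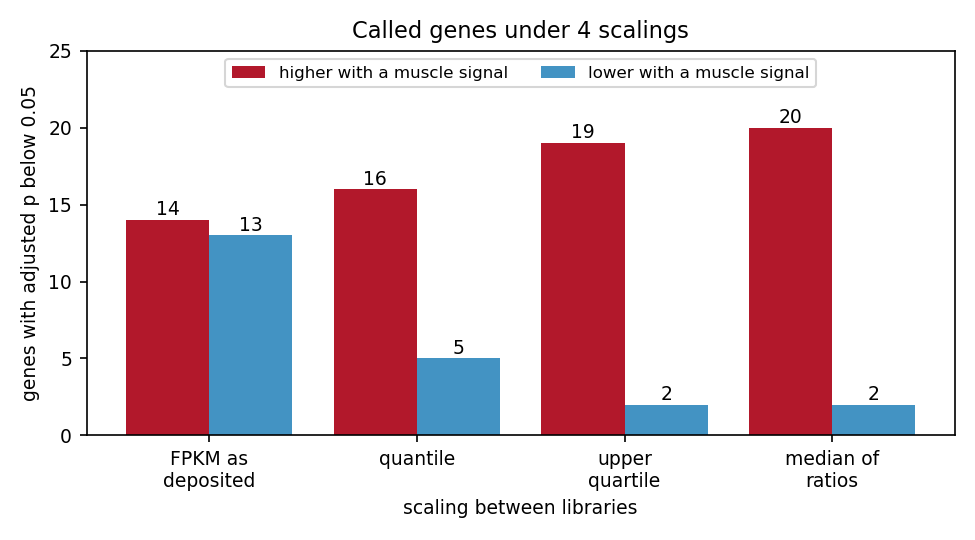
Number of genes called higher and lower with a muscle signal (adjusted p below 0.05 of 424 tested) with FPKM as deposited and after quantile, upper quartile and median of ratios scaling. The lower calls number 13 as deposited, and 5, 2 and 2 after scaling. The higher calls include genes that had to differ through the filter.

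A count that needs no model gave the genes in which both libraries of a line lay beyond all 6 others, in both lines. Of 424 genes 8 were above (1.89%), namely MYH7B, BMP10, SMYD1, XIRP1, CAV3, KCND3, MSTN and TMEM121. Leaving out the 4 genes that reached 1 FPKM in none of the 12 others left 4, of which TMEM121 alone is on no muscle list. With the filter of 7 libraries TMEM121 was not tested, and 3 were above and 12 below. The 3 were MYH7B, BMP10 and SMYD1, which mark the signal. Below were 12 (2.83%), of which PPARG, HIPK2, PPP3CA and RPL14 were also called. Named after their values were seen, the other 8 were RPL36, LMO2, UFD1L, IGFBP4, CREM, POLH, STK40 and SPP1. IGFBP4, which binds insulin-like growth factors, was at 174 FPKM in 1209, 157 in 1208, 94.5 in 1107 and 87.0 in 1112, against 113 to 372 in the others, so the classes overlapped when the lines were pooled. With upper quartile scaling 10 were above and 0 below.

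Of the markers of other cell types, single genes were called, where 27 of all 424 genes were called (6.37%). Of 7 tested endothelial genes none was called by limma (median log2 fold change -0.44), and their summed level was 99.5 to 206 FPKM with a muscle signal and 118 to 343 in the others. Of 11 matrix and fibroblast genes OPTC fell (median -0.29), with summed levels of 1191 to 2700 and 1255 to 3765 FPKM. Of 10 cell division genes none was called and none lay above 0 (median -0.42), with summed levels of 84.4 to 171 and 144 to 249 FPKM. Over all 424 genes 133 lay above 0. No tested member lay above 0 on the clock, insulin and growth hormone, and lymphocyte lists either. The medians were -0.27 for 7 ribosomal and translation genes, -0.16 for 7 clock genes, -0.13 for 5 immediate early and stress genes, -0.39 for 4 insulin and growth hormone genes and 0.01 for 5 genes of the actin and membrane skeleton, with no member called. Of the epicardium and mesothelium list TBX20 alone of 3 was called. No member was called among 3 smooth muscle, 3 nerve, 3 lymphocyte, 2 myeloid or 3 red blood cell genes. The ranges of the summed levels overlapped between classes in each of these lists, and the part of these cell types in the results was not tested.

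Line and trial could be separated only in part. In Ross both libraries with a muscle signal were of Fall 12, beside 2 other libraries of that trial. Within these 4 the log2 differences were -1.21 for PPARG, -0.90 for FABP4, -1.17 for RFTN1, 3.32 for TBX5, 1.97 for TBX20, 4.05 for TMEM121 and 1.504 for GAPDH. In the 8 Illinois libraries, all of Fall 13, they were -1.11, -1.88, -1.22, 2.48, 0.97, 2.43 and 1.63 for the same genes. The directions were thus alike, but these genes were picked by their calls in a joint fit that held the same libraries. That likeness is therefore a description. In Ross Fall 12 alone, with 2 libraries a class, limma called 0 genes (46 at an unadjusted p below 0.05). It called 26 in Illinois alone, 13 higher and 13 lower, and 7 in Ross alone, 7 higher and 0 lower. KCND3 and MSTN, which had to differ, are in both higher counts. In Ross alone PPARG, RFTN1 and FABP4 were not called (limma adjusted p = 0.379, 0.379 and 0.610). With line and trial both as terms 40 genes were called, 11 higher and 29 lower, and 20 of the 27 calls were among them. The calls of TBX20 (limma adjusted p = 0.0550), SDK1 (0.0512), OPTC (0.0759), GPX4 (0.0605) and ME1 (0.0683) were lost, and 12 of the 17 named genes kept theirs. The difference between the lines was tested as an interaction, which limma called for 0 genes, with 22 at an unadjusted p below 0.05.

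The headers of the table give each library a further number, and those of 1112, 1208 and 1209 recur in abdominal libraries 1097, 1199 and 1200. The sources used here do not say what this number marks. CASQ2 was at 0.0366 FPKM in 1097, 0.001 in 1199 and 0.502 in 1200, and BMP10 was listed at the floor in all 3. The number of 1107 recurs in no abdominal library analysed here.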

How the data were processed

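PolyA RNA of flash-frozen fat was made into stranded libraries, per the labels' protocols. The submitters' processing notes name Bowtie, TopHat and Cufflinks. No version, build or annotation is named (not given in the sources used here). Values deposited by the authors were taken as FPKM from the named tool and their range, 1 per gene and library. FPKM divides by each library's own total, so an abundant gene lowers all others. Of 567 lines 566 were complete. After 2 duplicates were removed, 564 genes remained, and genes beyond them were not analysed here. Every column matched 1 library. A value of 0.001 is a floor. Of 564 Entrez numbers 562 were found in the RefSeq table of GRCg7b, 541 with the same symbol, and no coordinates are given.

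Total depth is unknown. Steps between low values gave relative depths of 0.958 to 1.08 in the 4 libraries with a muscle signal and 0.630 to 2.18 in the 12 others, of which 1113, at 2.18, may be wrong by a whole factor. With these depths 85.7% of 1439 low values in 99 genes came within 0.05 of whole fragments, and 20.8% with depths shuffled.

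Fits of log2(FPKM + 1) used limma 3.58.1 with statmod 1.5.0 in R 4.3.3, two-sided, with robust moderation and a trend of variance on level. Genes needed 1 FPKM or more in 4 or more of 16 libraries. Classes were read from CASQ2. The members and gene lists were chosen with earlier results of these data known. Named genes were CASQ2, MYH7B, BMP10, FABP4, PPARG and TBX20, the 12 largest changes each way among called genes with a mean of 5 FPKM in the higher class, and up to 4 called members of each of 22 lists. Alternatives covered pseudocounts, filters, scaling, covariates, lines, trials and each library left out. On simulated data with 100 of 424 genes changed, 66.4% were recovered at a log2 change of 1 and 91.3% at 2, with 4.18% false among calls. The simulated errors were independent and had the same spread in both classes, and directions of change were drawn at random. The real fit called 27 genes, fewer than the 100 changed, and had a median log2 fold change of -0.20. These rates of recovery thus need not hold for the real libraries. Figures were drawn with matplotlib 3.10.9 in Python 3.11.15.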

Additional observations from a re-analysis of the deposited data

Results flagged for a closer look

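A high outlying library was found in 2 of the 63 groups looked at, where chance gives about 1 in 20, or 3.15. BMP10 in Ross library 1205, outside the 4 with a muscle signal, was 3.197 FPKM, and the nearest of the other Ross libraries was at 0.365. The same library had the highest CASQ2 and MYH7B outside the 4. CBFB was 71.8 FPKM in Ross library 1210, with the nearest at 50.5.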

How the results depend on the processing

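The count of 27 called genes became 44 with log2(CASQ2 + 1) in place of the class, 62 with library weights, 7 in Ross alone, 0 in Ross of Fall 12 alone and, in a choice made after seeing the data, 13 without 1205 and 1114. Leaving out each library gave 9 to 64 genes. The interaction count of 0 became 1 without a filter, after quantile scaling, after upper quartile scaling and after median of ratios scaling, and ranged from 0 to 5 with a library left out, the 5 being without 1209. The 20 genes beyond all others in both lines became 11 after quantile and 10 after upper quartile scaling, 58 with Ross compared within Fall 12, and 20 to 62 with a library left out, the 62 again without 1209. The FABP4 share difference ranged from -18.9 to -8.66 points with a library left out. With CASQ2 among the adjusted genes, also chosen after seeing the data, 36 were called. With the filter of 7 libraries 20 were called, 8 of them higher in place of 14, genes that mark the signal among them. For 17 named genes, KCND3 and MSTN left out, 363 of 560 values under alternatives kept direction and side of the threshold. The call was lost in 197, with 0 reversed, and the cause was not tested. The 17, TMEM121 among them, were picked by their calls in the main fit, and the alternatives used the same libraries. These counts are therefore a description. No paired analysis was possible because the classes share no replicate number in the labels. Few libraries with a muscle signal (2 per line) and the unknown depth limit precision.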

Other observations

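Muscle transcripts were also seen at low levels in 3 Ross abdominal libraries. CASQ2 was at 5.10 FPKM in 1196, 3.57 in 1197 and 3.12 in 1198, with at most 0.672 in the other abdominal libraries. NEB was at 6.21 FPKM in 1196, 0.564 in 1197 and 0.0405 in 1198, and MYH7B at 2.57, 1.30 and 6.13 FPKM in the same libraries. BMP10 was listed at the floor in 1196 and 1197 and stood at 0.0591 FPKM in 1198. Among cardiac libraries, RHAG, a red cell membrane channel, was at 11.9 FPKM in 1112 and at 1.93, 1.32 and 0.875 in 1208, 1107 and 1209, against 0.215 to 3.32 FPKM in the 12 others. NEB, RHAG and the 3 abdominal libraries were picked with their values in view.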
